A study of Mus musculus with 6 samples.

Results

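The genes described here are the splicing factors and RNA helicases of 8 families: the SR proteins (Srsf), the heterogeneous nuclear ribonucleoproteins (Hnrnp), the SF3A and SF3B subunits (Sf3), the small nuclear ribonucleoprotein proteins (Snrp), the pre-mRNA processing factors (Prpf), the RNA-binding motif proteins (Rbm), and the DEAD-box and DEAH-box helicases (Ddx and Dhx). They were chosen by symbol, whatever their values. Their names were attached to 255 of the 41527 regions in 3 deposited lists, and to 119 of the 15356 genes named there. RefSeq lists 157 protein-coding genes in these families, of which 117 were named by at least 1 region and 40 by none. The remaining named genes, Rbm3os and Rbm46os, are non-coding antisense RNAs. The regions came from CUT&Tag with an antibody to TERT, the catalytic subunit of telomerase; in this assay a transposase is brought to the antibody and cuts the chromatin nearby. Cultured neurons of cortex and hippocampus from C57BL/6 mouse embryos of day 15 to 18 were used. They received 2 µM BIBR1532, a small-molecule inhibitor of telomerase, for 24 h (3 samples), or the vehicle dimethyl sulfoxide for 24 h (3 samples). A further label field calls the vehicle samples untreated.

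Pre-mRNA splicing removes introns in a series of steps carried out by the spliceosome. Small nuclear ribonucleoproteins recognise the splice sites and the branch point, SR proteins mostly promote the use of an exon, and hnRNP proteins bind the nascent transcript and often repress exons. DEAD-box and DEAH-box helicases use ATP to rearrange RNA and RNA-protein contacts, in splicing and also in ribosome assembly, mRNA export and translation. Neurons are known for extensive alternative splicing. Some of these proteins also have described links to telomeres: in human cells HNRNPA1 binds telomeric repeats and DHX36 unwinds G-quadruplexes, among them that of the telomerase RNA.

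Each list was made from the combined libraries of a condition. The BIBR1532 list holds regions where that pool had more signal, the vehicle list those where the vehicle pool did, and the common list holds regions called in both. Which list belongs to which condition was read from the order of the conditions in the list names, so the direction is likely but not stated outright. Each condition is 1 pooled measurement, so no value below has a replicate error and no test between conditions could be made. Intervals are exact (Clopper-Pearson) 95% intervals of a share and cover counting error only. The depth of the libraries is unknown from the lists, and no library made without the antibody to TERT was analysed here. A region's class and gene are those of the authors' annotation, which names the gene with the nearest start site. The score of a region is the authors' own value, used here only to rank regions within a list.

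TERT regions shared by both conditions lay at the promoters of many of these genes. A promoter region means one that the annotation calls promoter-TSS, its class for sequence close to a transcription start. The transcript behind the class can belong to another gene, as with Ccdc47 for Ddx42, Mfsd11 for Srsf2 and Ttc9c for Hnrnpul2. Such a region was counted for the gene that the annotation named. Of the 157 protein-coding members, 46 (29.3%, interval 22.3% to 37.1%) had a common promoter region, against 14.2% of all 21883 protein-coding genes. In the BIBR1532 list 14 members (8.92%, 4.96% to 14.5%) had a promoter region, against 6.89% of all protein-coding genes. In the vehicle list 23 members (14.6%, 9.52% to 21.2%) had one, against 7.37%. For the common and vehicle lists the interval of the members lay above the share over all genes, and for the BIBR1532 list it included that share. Among CpG-rich promoters, described further on, all 3 intervals included the share over all genes. The members were chosen with earlier results of these data known, and these shares describe the lists.

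Some of the members' promoters held a common region and a condition-specific region side by side or overlapping. Of these, 7 are printed below from RefSeq (GRCm38.p6, the build the regions use), each 300 bases on the gene's own strand, from 250 before the annotated start to 50 after it. Positions are counted from the RefSeq start, which for Prpf4b is not the start the authors' annotation used. Capitals mark the bases inside a BIBR1532 region for Hnrnpr (chr4:136310692-136310991, + strand), Hnrnpc (chr14:52103972-52104271, - strand), Ddx3x (chrX:13280772-13281071, + strand) and Prpf4b (chr13:34875279-34875578, + strand).
Hnrnpr: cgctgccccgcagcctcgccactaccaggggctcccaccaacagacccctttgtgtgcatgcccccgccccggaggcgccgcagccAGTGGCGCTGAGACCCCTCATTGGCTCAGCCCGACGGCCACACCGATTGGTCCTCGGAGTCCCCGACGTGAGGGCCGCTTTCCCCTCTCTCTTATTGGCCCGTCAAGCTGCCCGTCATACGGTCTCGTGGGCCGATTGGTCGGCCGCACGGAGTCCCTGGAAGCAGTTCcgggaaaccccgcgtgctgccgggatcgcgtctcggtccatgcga
Hnrnpc: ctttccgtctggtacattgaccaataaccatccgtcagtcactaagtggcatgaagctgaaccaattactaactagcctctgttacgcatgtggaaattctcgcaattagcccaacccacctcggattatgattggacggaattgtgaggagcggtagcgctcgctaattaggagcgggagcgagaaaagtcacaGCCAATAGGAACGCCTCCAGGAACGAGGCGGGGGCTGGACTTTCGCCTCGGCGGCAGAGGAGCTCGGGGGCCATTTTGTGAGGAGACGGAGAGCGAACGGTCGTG
Ddx3x: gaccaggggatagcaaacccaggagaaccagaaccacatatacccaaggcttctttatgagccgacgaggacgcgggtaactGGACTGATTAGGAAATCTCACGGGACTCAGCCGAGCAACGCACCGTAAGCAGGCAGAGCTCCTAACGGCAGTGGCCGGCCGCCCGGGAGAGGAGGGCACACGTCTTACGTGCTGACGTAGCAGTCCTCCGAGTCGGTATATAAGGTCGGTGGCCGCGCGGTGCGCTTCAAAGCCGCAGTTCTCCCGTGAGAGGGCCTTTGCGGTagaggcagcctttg
Prpf4b: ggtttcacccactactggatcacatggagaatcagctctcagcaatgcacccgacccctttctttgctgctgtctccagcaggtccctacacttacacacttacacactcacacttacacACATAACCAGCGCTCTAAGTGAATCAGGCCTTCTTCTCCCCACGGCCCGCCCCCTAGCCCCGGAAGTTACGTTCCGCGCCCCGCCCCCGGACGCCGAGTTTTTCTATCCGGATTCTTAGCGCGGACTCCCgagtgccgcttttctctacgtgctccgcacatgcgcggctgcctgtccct
Capitals mark the bases inside a vehicle region for Srsf10 (chr4:135855821-135856120, + strand), Hnrnpl (chr7:28810640-28810939, + strand) and Hnrnpa0 (chr13:58128507-58128806, - strand).
Srsf10: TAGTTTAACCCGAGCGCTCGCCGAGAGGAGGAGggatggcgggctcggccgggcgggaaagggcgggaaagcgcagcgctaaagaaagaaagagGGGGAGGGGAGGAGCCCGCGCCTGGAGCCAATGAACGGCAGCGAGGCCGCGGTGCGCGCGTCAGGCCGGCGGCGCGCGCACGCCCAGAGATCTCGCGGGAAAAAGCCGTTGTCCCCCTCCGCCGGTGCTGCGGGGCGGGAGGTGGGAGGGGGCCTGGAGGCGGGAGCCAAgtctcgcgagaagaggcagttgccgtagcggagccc
Hnrnpl: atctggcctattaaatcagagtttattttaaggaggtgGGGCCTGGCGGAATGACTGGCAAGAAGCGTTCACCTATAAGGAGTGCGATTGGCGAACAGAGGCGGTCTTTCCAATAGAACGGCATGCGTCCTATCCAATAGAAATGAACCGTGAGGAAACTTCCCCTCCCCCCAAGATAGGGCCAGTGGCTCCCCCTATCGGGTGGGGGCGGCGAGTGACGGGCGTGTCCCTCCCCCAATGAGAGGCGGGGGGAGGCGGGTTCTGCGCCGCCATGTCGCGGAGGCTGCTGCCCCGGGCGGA
Hnrnpa0: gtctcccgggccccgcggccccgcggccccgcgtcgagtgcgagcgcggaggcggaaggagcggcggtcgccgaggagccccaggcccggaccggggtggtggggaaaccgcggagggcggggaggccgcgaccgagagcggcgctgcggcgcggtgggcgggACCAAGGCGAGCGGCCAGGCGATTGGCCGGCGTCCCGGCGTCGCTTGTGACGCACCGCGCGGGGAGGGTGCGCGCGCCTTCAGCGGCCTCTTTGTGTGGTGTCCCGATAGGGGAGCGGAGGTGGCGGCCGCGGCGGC
In Hnrnpr the common region takes the first 86 bases of the window and the BIBR1532 region begins at the next base, running 169 bases across the start. In Ddx3x the common region takes the first 82 bases and the BIBR1532 region the next 204. Hnrnpc has its common region over the first 195 bases and its BIBR1532 region over the last 105. Hnrnpl shows the same arrangement in the vehicle list, with 38 common bases followed by 262 bases of a vehicle region. In Srsf10 the vehicle bases form 2 runs, of 33 and 170 bases. The common region of Srsf10 takes the first 69 bases, so its first vehicle run lies in both lists. In Hnrnpa0 the common region takes the first 170 bases and the vehicle region begins at base 164, so these overlap too. Regions that adjoin may be separate sites or parts of a single stretch of signal, which was not tested. The windows hold between 21 (Prpf4b and Hnrnpl) and 52 (Hnrnpa0) CpG dinucleotides.

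The hnRNP genes had the largest share of common promoter regions among the 8 families. Of 21 hnRNP genes, 13 (61.9%, interval 38.4% to 81.9%) had one, against 33 of the other 136 members (24.3%, 17.3% to 32.4%). These 13 were Hnrnpa0, Hnrnpa2b1, Hnrnpa3, Hnrnpab, Hnrnpc, Hnrnpd, Hnrnpf, Hnrnph1, Hnrnpl, Hnrnpll, Hnrnpr, Hnrnpul1 and Hnrnpul2. Hnrnpul1, whose protein acts at DNA double-strand breaks as well as on RNA, had the widest common promoter region of all members, at 1044 bp, centred 591 bp upstream of its start. Hnrnpul2 followed in this family with 795 bp, centred 318 bp inside the gene, and Hnrnpc with 590 bp. Hnrnph1, which binds runs of G, had 2 common promoter regions of 310 and 429 bp. The common region of Hnrnpa2b1, a carrier of RNA to dendrites, was 435 bp wide. The family was set apart from the others after its count was seen.

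**Figure D1:**
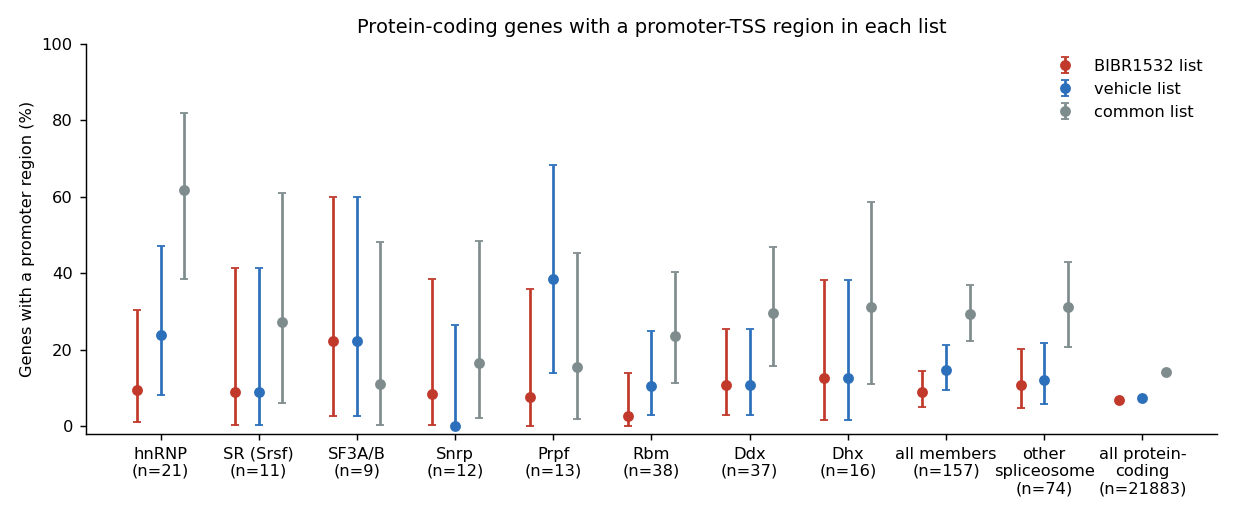
Share of protein-coding genes with a promoter-TSS region (vertical axis, percent) in the BIBR1532, vehicle and common lists, by family, with exact 95% binomial intervals that cover counting error only. The hnRNP family has the highest point in the common list at 61.9%, against 29.3% over all members and 14.2% over all protein-coding genes.

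The 8 condition-specific promoter regions of hnRNP genes all lay within 200 bp of a common region. Over all genes, 28.9% of BIBR1532 and 32.5% of vehicle promoter regions did. Common promoter regions were frequent in this family, which was set apart after its count was seen. Hnrnpr held 2 of the 8, and that of Hnrnpm lay exactly 200 bp away. In the BIBR1532 list, Hnrnpr, whose protein carries beta-actin mRNA along axons, had 2 promoter regions, of 576 bp with score 7.90 and of 169 bp with score 2.37, on the 2 sides of its 271-bp common region. Hnrnpc, a protein that binds runs of U and keeps cryptic exons out of mRNA, had a BIBR1532 promoter region of 294 bp (score 2.83) that began at the base after its common region, and a further BIBR1532 region in intron 1 of 8 with score 7.29. In the vehicle list, promoter regions lay at Hnrnpa0 (365 bp, score 4.06), Hnrnpa3 (138 bp, 2.01), Hnrnpl (602 bp, 2.88), Hnrnpll (370 bp, 2.42) and Hnrnpm (145 bp, 7.38). HNRNPL binds CA repeats, and HNRNPLL is known for the control of CD45 splicing in T cells. Those of Hnrnpa0, Hnrnpl and Hnrnpll touched or overlapped the common region, and that of Hnrnpa3 lay 97 bp from it. Over all classes, hnRNP genes had 17 regions in the BIBR1532 list and 13 in the vehicle list, so that 56.7% were BIBR1532 regions. The interval of 37.4% to 74.5% includes the 46.5% of all condition-specific regions. These counts include 2 BIBR1532 regions and 1 vehicle region named for Hnrnpa1l2-ps2, which lay between genes from 61035 to 653562 bp from its start. Hnrnpd, which binds AU-rich elements, had the highest-scoring BIBR1532 region of the family, at 8.95 in the 5' UTR (exon 1 of 9). Hnrnpu, which organises chromatin as well as RNA, had a single region, in the BIBR1532 list 30852 bp upstream with score 1.33.

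**Figure D2:**
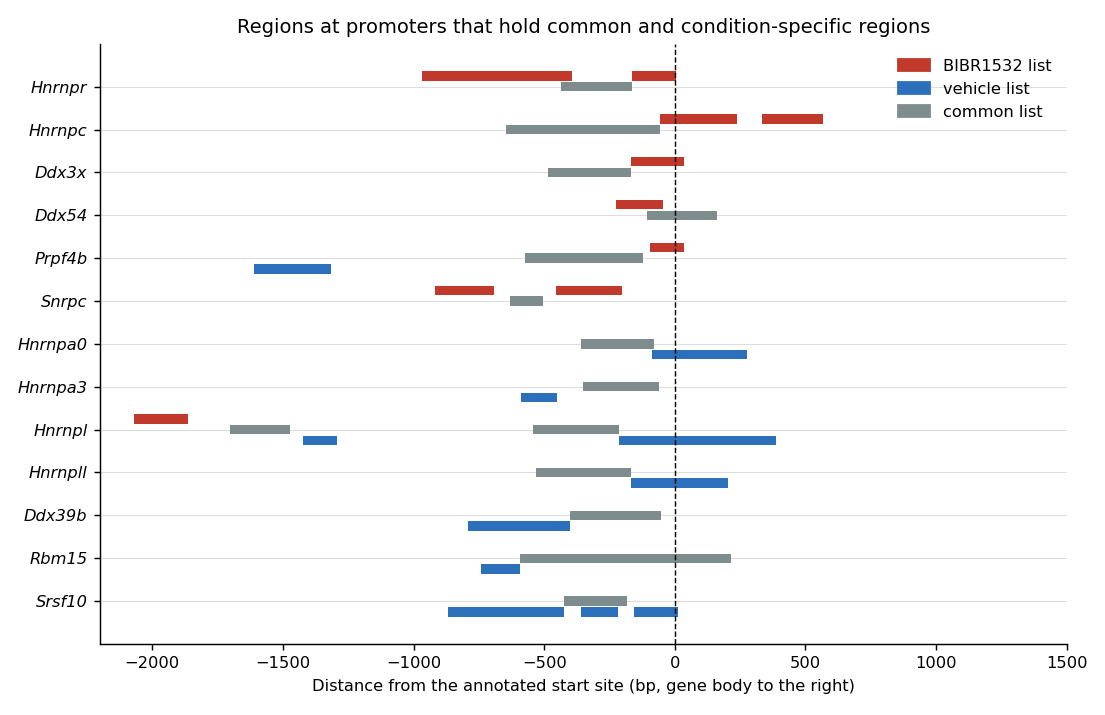
Position of the regions at the 13 members with a promoter region in both the common list and a condition-specific list, by distance in bp from the start site (horizontal axis, gene body to the right), in red for BIBR1532, blue for vehicle and grey for common; each bar is 1 region at true width. Red and blue bars stand beside the grey ones or overlap them in position. Of all 37 members with a condition-specific promoter region, 0 have one in both condition-specific lists, against 2.20% of all such genes.

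Hnrnpa1 was named by no region, although its start lay inside one. A common region of 1235 bp, wider than any common region named for a member, covered the start of Hnrnpa1 at chr15:103239495-103240729 but was named for the neighbour Cbx5, a heterochromatin protein gene that starts on the other strand. The whole 300-base promoter of Hnrnpa1 lay inside it (chr15:103240147-103240446, + strand), and is printed with its 4 CCAAT boxes in capitals.
Hnrnpa1: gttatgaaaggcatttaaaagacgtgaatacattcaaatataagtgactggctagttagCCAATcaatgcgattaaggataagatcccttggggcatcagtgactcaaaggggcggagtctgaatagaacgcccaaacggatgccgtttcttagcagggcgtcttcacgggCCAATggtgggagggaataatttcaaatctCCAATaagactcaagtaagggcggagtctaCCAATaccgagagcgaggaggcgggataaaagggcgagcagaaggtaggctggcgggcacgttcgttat
In the same way a 739-bp common region at the start of Hnrnph3 was named for Pbld2, and a vehicle region of score 9.56 beside the start of Hnrnph2 was named for Gla. Among the 40 protein-coding members that no region named, 9 had a region within 1 kb of their start under a neighbour's name. The other 6 were Snrpd2, Snrpd3, Sf3a2, Rbm14, Snrpf and Ddx51. Some of the 40 have no RefSeq promoter and could not be counted. The same share over all unnamed genes was not computed. When any region overlapping 1 kb either side of the start was counted, whatever its name, 43.0% of the 135 members with a RefSeq promoter had a common region (58 members, interval 34.5% to 51.8%), against 23.2% of 17491 genes. Counted so, 15 of 19 hnRNP genes had a common region at the start, and 43 of the other 116 members (37.1%, 28.3% to 46.5%).

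Among the 11 SR protein genes, 1 had a BIBR1532 promoter region (Srsf9), 1 a vehicle promoter region (Srsf10) and 3 a common promoter region (Srsf2, Srsf5 and Srsf10). These shares were 9.09%, 9.09% and 27.3%, against 6.89%, 7.37% and 14.2% of all genes, which the intervals include. Srsf10, which represses splicing when dephosphorylated after heat shock, had 2 BIBR1532 and 5 vehicle regions. Its 3 vehicle promoter regions had scores of 9.21, 1.52 and 1.38 and lay on both sides of, and partly over, a 244-bp common region; the BIBR1532 regions lay 28871 and 27285 bp upstream with scores of 8.86 and 4.09. A vehicle region 5521 bp upstream, with score 9.27, was the highest of the family in the vehicle list. The common promoter regions of Srsf2 and Srsf5 were 599 and 580 bp wide. Srsf2, the speckle protein SC35, also had 2 BIBR1532 regions, in its exons 1 and 2 of 3, with scores of 2.55 and 3.52. No vehicle region carried its name, but a vehicle region named for its divergent partner Mfsd11 overlapped the sequence within 1 kb of its start. Srsf3 had 1 BIBR1532 region (score 1.50, in intron 1 of 6), 2 vehicle regions between genes at the tied score of 5.19, and 1 common region in exon 7 of 7. Srsf1 was named by no region and had none within 1 kb of its start.

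Of 9 SF3A and SF3B genes, 2 had a BIBR1532 promoter region, 2 a vehicle one and 1 a common one (11.1%, interval 0.281% to 48.2%, which includes the 14.2% of all genes). The BIBR1532 and vehicle shares were both 22.2%, against 6.89% and 7.37% of all genes, which the intervals include. Sf3b1, the subunit that clamps the branch point, had a BIBR1532 promoter region (319 bp, score 4.10) and a vehicle region in intron 1 of 24 (254 bp, score 6.01). Sf3a1, a subunit of the U2 particle, had a BIBR1532 promoter region of score 2.37. Sf3b2 had a vehicle promoter region of 777 bp and score 6.81, the widest condition-specific promoter region of any member. Sf3b6, whose protein touches the branch-point adenosine, had 2 vehicle promoter regions with scores of 4.64 and 2.34 and 2 further regions in the BIBR1532 list outside promoters. Sf3b4 carried the only common promoter region named for the family, 302 bp wide, while a 335-bp common region at the start of Sf3a2 was named for Plekhj1.

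Of 12 Snrp genes, 1 had a BIBR1532 promoter region, 0 a vehicle one and 2 a common one (16.7%, 2.09% to 48.4%), and the interval for the vehicle share reached 26.5%. Over all genes the shares were 6.89%, 7.37% and 14.2%, which the intervals include. Snrpa, a protein of the U1 particle, had a common promoter region of 723 bp. Snrpc, which steadies the contact of the U1 particle with the splice donor, had a common promoter region of 126 bp with BIBR1532 regions on either side of it, of 225 bp (score 1.31) and 252 bp (score 2.91). Common regions at the starts of the Sm protein genes Snrpd2 (460 bp) and Snrpd3 (609 bp) were named for Qpctl and Gucd1. Snrpn, the imprinted Sm protein gene expressed in neurons, had 1 region in each list. Its BIBR1532 region (800 bp, score 4.89) lay 12897 bp inside, in an intron of the overlapping transcript Snhg14, and its common region in intron 2 of 10, while its vehicle region (598 bp, score 5.47) lay between genes 494994 bp upstream.

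Of 13 Prpf genes, 1 had a BIBR1532 promoter region (7.69%, interval 0.195% to 36.0%), 5 a vehicle one (38.5%, 13.9% to 68.4%) and 2 a common one (15.4%, 1.92% to 45.4%). Over all genes the shares were 6.89%, 7.37% and 14.2%. The vehicle interval lay above its share, and the other intervals included theirs. The intervals of the BIBR1532 and vehicle shares overlap. The 5 vehicle genes were Prpf4, Prpf8, Prpf38a, Prpf38b and Prpf40b. Prpf4, a protein of the U4/U6 particle, had the vehicle promoter region of highest score among all members, 11.2, over 152 bp centred 13 bp upstream of its start. The same stretch also holds the start of Cdc26, and the BIBR1532 list has a region close by under that name. Prpf8, the protein at the catalytic centre of the spliceosome, had 1 region, a vehicle promoter region of 162 bp and score 1.73. Prpf40b had 2 BIBR1532 and 4 vehicle regions, including the vehicle region of highest score of any member, 12.7, in its intron 1 of 25. Prpf4b, a kinase that acts on the spliceosome before catalysis, went the other way, with 4 BIBR1532 regions against 1 vehicle region. Its BIBR1532 promoter region (130 bp, score 7.05) lay 28 bp from its 449-bp common region, and its other 3 BIBR1532 regions lay between genes, from 42113 to 60611 bp upstream.

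The 38 Rbm genes included 1 with a BIBR1532 promoter region, 4 with a vehicle one and 9 with a common one. These shares were 2.63%, 10.5% and 23.7%, against 6.89%, 7.37% and 14.2% of all genes, which the intervals include. Rbm48, a protein of the minor spliceosome, had the BIBR1532 promoter region of highest score among members, 8.72, over 321 bp, and lay 127 bp from a common region in its own 5' UTR. The vehicle promoter regions were at Rbm3, Rbm8a, Rbm15 and Rbm33. Rbm15, an adaptor of the N6-methyladenosine writer, had an 809-bp common promoter region with a vehicle region of 151 bp and score 2.29 at its upstream edge. At the cold-inducible gene Rbm3, a vehicle region of 249 bp and score 4.99 lay over the start, and a 463-bp common region 12 bp away was named for the antisense RNA Rbm3os. Reads at such a shared start cannot be assigned to 1 strand. Rbm4b had a 687-bp common promoter region. Rbm8a is the exon junction protein Y14, and its region scored 1.72.

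Of 37 DEAD-box genes, 4 had a BIBR1532 promoter region (Ddx3x, Ddx20, Ddx28 and Ddx54), 4 a vehicle one (Ddx1, Ddx10, Ddx39b and Ddx47) and 11 a common one (29.7%, interval 15.9% to 47.0%). The common share over all genes was 14.2%. The BIBR1532 and vehicle shares were both 10.8%, against 6.89% and 7.37% of all genes, which the intervals include. Ddx5, a helicase that is also a transcription co-regulator, had only a common region, 625 bp wide and centred 27 bp upstream of its start. Ddx42 and the nucleolar helicase gene Ddx50 had common promoter regions of 589 and 509 bp. Ddx3x, which opens structured leaders for translation, had a BIBR1532 region of 204 bp (score 3.91) immediately after a 317-bp common region, as in its sequence above. Ddx54, another nucleolar helicase gene, had a BIBR1532 region of 180 bp and score 1.48 overlapping a 266-bp common region. Ddx39b, an mRNA export helicase, had a vehicle region of 393 bp and score 2.95 directly upstream of a 345-bp common region. Ddx20, a partner of the SMN protein, had a BIBR1532 promoter region of score 6.11, and Ddx1, a subunit of the tRNA ligase complex, a vehicle promoter region of score 8.06. No common region lay near either of these, the nearest being 16888 and 344321 bp away. Ddx6, a helicase of mRNA decay bodies, had the BIBR1532 region of highest score of any member, 11.7, which the annotation called intergenic although it lies inside the RefSeq gene span.

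Among 16 DEAH-box genes, 2 had a BIBR1532 promoter region (Dhx35 and Dhx37), 2 a vehicle one (Dhx29 and Dhx36) and 5 a common one (Dhx15, Dhx30, Dhx33, Dhx38 and Dhx40). These shares were 12.5%, 12.5% and 31.25%, against 6.89%, 7.37% and 14.2% of all genes, which the intervals include. The common promoter regions were narrow, from 156 to 289 bp. Dhx15 and Dhx38 act in spliceosome release and in the second step of splicing. Dhx35 had the most regions of any member, 9 in all, of which 3 were BIBR1532, 5 vehicle and 1 common, but 6 of its regions lay more than 100 kb from its start. Its BIBR1532 promoter region (232 bp, score 5.25) and its vehicle region in intron 1 of 20 (304 bp, score 1.81) lay on the 2 sides of the start. Dhx36 had 1 region, a vehicle promoter region of 173 bp at the tied score of 5.19. Dhx9 had 3 vehicle regions and none in the other lists, in its 5' UTR (score 1.57), in intron 19 of 27 (6.45) and in the 3' UTR of the neighbour Npl (5.28).

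Over all classes the members' condition-specific regions divided between the conditions much as those of all genes did. The BIBR1532 list held 85 regions of 60 genes, the vehicle list 94 regions of 67 genes and the common list 76 regions of 64 genes. Of the 179 condition-specific regions 47.5% were in the BIBR1532 list (interval 40.0% to 55.1%), against 46.5% of all 34715. At promoters it was 16 of 42 (38.1%, 23.6% to 54.4%), against 48.5% of all 3525, a difference inside the interval. Regions of 1 gene share their neighbourhood and are not replicates. Regions in both condition-specific lists were found for 32 of the 119 genes (26.9%, interval 19.2% to 35.8%), against 34.7% of all 15356 named genes. The BIBR1532 and not the vehicle list named 28 (23.5%), against 24.6%, and the vehicle and not the BIBR1532 list named 35 (29.4%), against 29.5%. The number of genes whose regions were all common was 24 (20.2%, 13.4% to 28.5%), against 11.2%. Of the 37 genes with a condition-specific promoter region, 0 had one in both lists (the interval reaches 9.49%), against 2.20% of all such genes.

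Regions of the members lay nearer to start sites than those of all genes. Promoters took 18.8% of their BIBR1532 regions (interval 11.2% to 28.8%), against 10.6% of all BIBR1532 regions. They took 27.7% of their vehicle regions (18.9% to 37.8%), against 9.77%, and 65.8% of their common regions (54.0% to 76.3%), against 51.9%. Introns took 30.6% of the members' BIBR1532 regions, 23.4% of their vehicle regions and 7.89% of their common regions, against 44.3%, 43.7% and 18.3% over all regions. The median distance from a region's centre to the start was 8311 bp in the BIBR1532 list, 4961 bp in the vehicle list and 220 bp in the common list, against 23514, 26535 and 258 bp over all regions. Of the 255 regions, 122 lay inside the gene they were named for, 43 outside it but within 1 kb of its start, 26 in another gene, and 64 between genes or at a place the RefSeq table did not resolve. An example is a vehicle region named for Ddx17 that lay in intron 13 of 13 of Dmc1. Such regions are tied to a member by distance alone.

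**Figure D3:**
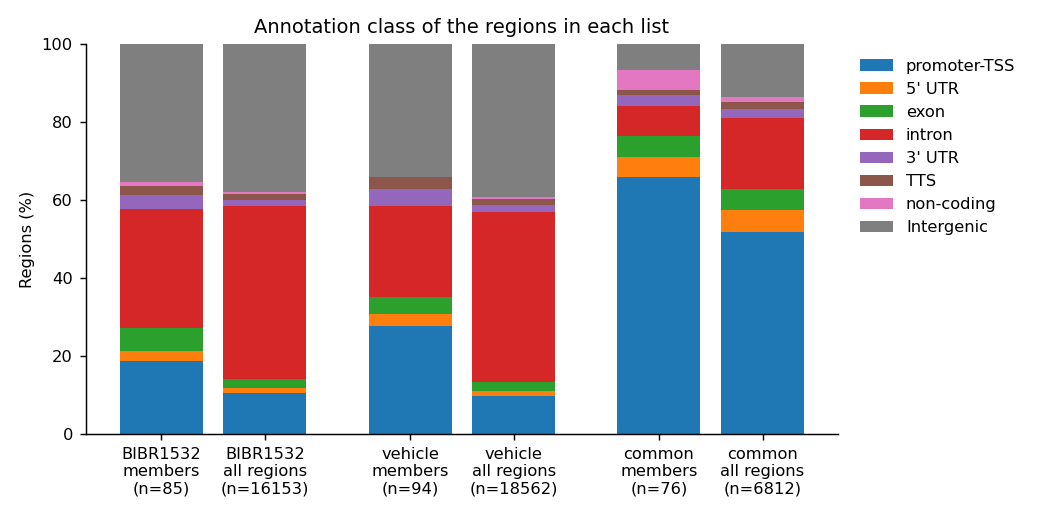
Share of regions in each annotation class (vertical axis, percent) for the members and for all regions of the BIBR1532, vehicle and common lists. The promoter-TSS share of the members is 18.8%, 27.7% and 65.8%, each above that of all regions of the same list.

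Scores in the condition-specific lists were heavily tied. The most frequent score was 6.34 in the BIBR1532 list, held by 27.1% of the members' regions against 46.8% of all, and 5.19 in the vehicle list, held by 36.2% against 50.2%. Promoter regions of members lay mostly below these values: 13 of 16 in the BIBR1532 list (81.2%, interval 54.4% to 96.0%), against 65.3% of all BIBR1532 promoter regions, and 19 of 26 in the vehicle list (73.1%, 52.2% to 88.4%), against 54.0%. Both intervals include the share over all promoter regions of that list. Above them were the BIBR1532 promoter regions of Hnrnpr, Prpf4b and Rbm48, and the vehicle promoter regions of Prpf4, Srsf10, Ddx1, Hnrnpm and Sf3b2. The members' highest scores, 11.7 and 12.7, were below the highest of the whole lists, 27.2 and 25.9.

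**Figure D4:**
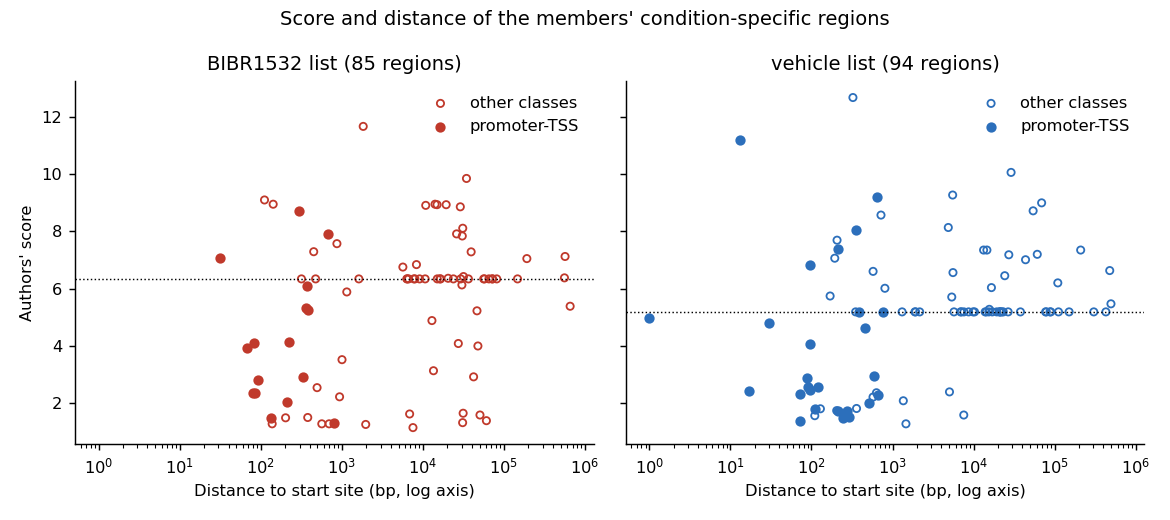
Authors' score (vertical axis) against the distance of the region's centre to the start site in bp (horizontal log axis) for the members' 85 BIBR1532 and 94 vehicle regions; filled points are promoter-TSS regions and the dotted line is the most frequent score of the whole list. Most filled points lie below the line, and points on it lie mostly more than 1 kb from the start.

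Many of the members' condition-specific promoter regions lay close to a common region. Whether such neighbours are separate sites or parts of a single stretch of signal was not tested. Within 200 bp of a common region lay 10 of 16 BIBR1532 promoter regions (62.5%, interval 35.4% to 84.8%), against 28.9% of all BIBR1532 promoter regions. In the vehicle list it was 11 of 26 (42.3%, 23.4% to 63.1%), against 32.5%, which the interval includes. Fewer touched or overlapped a common region: 5 of 16 BIBR1532 promoter regions (31.25%, against 14.7% of all) and 7 of 26 vehicle ones (26.9%, against 16.6%). Regions of 1 gene count more than once here, with 2 from Hnrnpr, 2 from Snrpc and 3 from Srsf10. Sides were set by comparing the centres of the 2 regions. The centre of the BIBR1532 region lay on the gene-body side in 5 cases and on the upstream side in 4, and that of the vehicle region in 5 and 5. A 142-bp vehicle region of Srsf10, counted on the gene-body side, lies wholly inside its common region. In the case that remained in each list, the common region was named for another gene, Ccdc157 beside Sf3a1 and Rbm3os beside Rbm3. Of the 14 members with a BIBR1532 promoter region 8 had no common one (57.1%, interval 28.9% to 82.3%), against 74.5% of all genes with a BIBR1532 promoter region. Of the 23 with a vehicle promoter region 16 had no common one (69.6%, 47.1% to 86.8%), against 72.4%.

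The members' promoters were rich in CpG, as are those of many genes active in all tissues. RefSeq gave a 300-base promoter for 135 of the 157 members (86.0%) and for 17491 of 21883 protein-coding genes. A promoter was called CpG-rich where its GC content was at least 55% and its observed over expected CpG at least 0.6. This held for 104 members (77.0%), against 44.1% of all genes. Among CpG-rich promoters the members' share with a common region was 31.7% (33 of 104, interval 22.9% to 41.6%), and that of all genes 27.2%, inside the interval. The hnRNP genes had 10 of 15 (66.7%, 38.4% to 88.2%) and the other members 23 of 89 (25.8%, 17.1% to 36.2%). Counting any region that overlapped the start, 48.1% of CpG-rich members had a common one (38.2% to 58.1%), against 40.5% of all CpG-rich genes. In the remaining promoters, and by the annotated class, the members had 7 of 31 (22.6%, 9.59% to 41.1%), against 5.00%. Within CpG-rich promoters the BIBR1532 share was 11.5%, against 11.3% of all genes, and the vehicle share 17.3% (10.6% to 26.0%), against 12.6%.

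**Figure D5:**
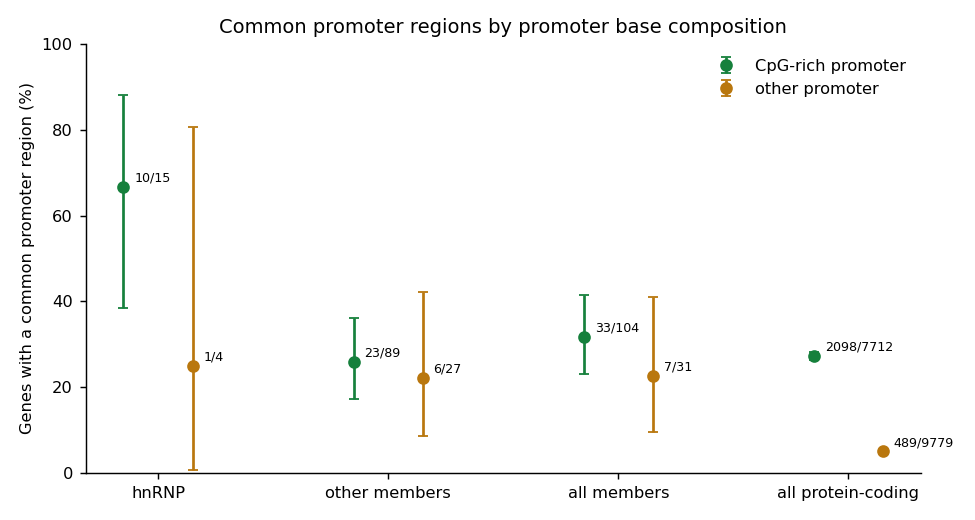
Share of genes with a common promoter region (vertical axis, percent) by promoter base composition, CpG-rich in green and other in ochre, with exact 95% binomial intervals and the counts beside each point. In CpG-rich promoters the members stand at 31.7% and all protein-coding genes at 27.2%, with hnRNP genes at 66.7%.

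Short motifs were counted in the same 300-base windows on both strands. The ETS core CCGGAAG was in 32.6% of the members' promoters (44 of 135, interval 24.8% to 41.2%), against 12.9% of all, and within CpG-rich promoters in 36.5%, against 21.0%. The GC box GGGCGG was in 63.7%, against 49.2%, but within CpG-rich promoters in 70.2%, against 81.8%. The CCAAT box was in 48.9%, against 42.3%, and in 14 of 19 hnRNP promoters (73.7%, 48.8% to 90.9%). Of the printed promoters, those of Hnrnpr, Hnrnpc, Hnrnpl and Hnrnpa1 each hold 4 CCAAT boxes and that of Prpf4b holds a CCGGAAG 71 bases before the start. The E-box CACGTG was in 14.8%, against 8.91%, the YY1 motif AAGATGGC in 5.19%, against 3.57%, the palindromic NRF1 motif in 2.22%, against 1.47%, and TATAAA in 14.1%, against 14.8%. A pair of telomeric repeats in tandem was in 0 of 135 member promoters (the interval reaches 2.70%) and in 2 of all 17491. A match is a run of letters in this window and not a bound site.

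A partner gene starting within 1 kb on the opposite strand was present for 26 of the 135 members (19.3%, interval 12.98% to 26.9%), against 8.48% of all genes. Within CpG-rich promoters it was 21.2% (13.8% to 30.3%), against 15.1%, which the interval includes. Such pairs included Hnrnpa1 with Cbx5, Hnrnpa2b1 with Cbx3, Ddx5 with Cep95, Srsf2 with Mfsd11, Ddx42 with Ccdc47 and Prpf4 with Cdc26. The human HNRNPA2B1 and CBX3 promoter is known as an element that keeps chromatin open. A common region at such a start is given to 1 gene of the pair by the annotation.

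Spliceosome genes outside the 8 families were counted in the same way. Of 74 on a list of splicing proteins, 8 had a BIBR1532 promoter region (10.8%, interval 4.78% to 20.2%), against 6.89% of all genes. A vehicle one was at 9 (12.2%, 5.71% to 21.8%), against 7.37%. Both intervals include the share over all genes. A common one was at 23 (31.1%, 20.8% to 42.9%), against 14.2%. These genes were not counted apart by CpG content. Those with a common one included Snrnp70 and U2af2, which recognise the splice donor and the polypyrimidine tract, and Tardbp and Sfpq, RNA-binding proteins studied in motor neuron disease. Sfpq also had a vehicle promoter region of score 12.1. As a check of the label, neuronal markers had a BIBR1532 promoter region in 1 of 10 genes, a vehicle one in 2 and a common one in 2 (Snap25 and Syt1). Markers of astrocytes, the oligodendrocyte lineage, microglia and endothelium had a BIBR1532 or a common one in 0 of 7, 0 of 6, 0 of 6 and 0 of 5. A vehicle one was at 1 of the 7 astrocyte and 1 of the 6 oligodendrocyte lineage markers. With 14.2% of all genes holding a common promoter region, lists this short do not separate the cell types. The assay measures TERT signal and not expression.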

How the data were processed

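TERT CUT&Tag was made from mouse primary neurons treated with BIBR1532 or vehicle, and groups follow the doses that sample titles give. Tools listed in the submitters' processing notes, without role or order, are MACS2 2.1.2, Picard, Bowtie2 and CASAVA 1.8, with mm10 as the build. The deposited lists combine the 3 libraries of a condition; the bdgdiff step of MACS2 at a threshold of 1 was inferred from their names. Per the file headers, annotatePeaks.pl gave each region its class and gene. The deposited score is the authors' own value, with the scaling between pools unknown; it was used only within a list.

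Only chromosomes 1 to 19, X and Y were used, with members matched by gene ID to RefSeq (119 of 119). Counts, shares, exact binomial intervals, gaps between regions and promoter motifs were computed with scipy 1.17.1, numpy 2.4.6 and pandas 2.3.3 under Python 3.11.15, figures were drawn with matplotlib 3.10.9, and the code was tested on simulated data. RefSeq promoters on chromosome 18 were not used here.

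The members, families and lists were chosen with earlier results of these data known. Genes named are 14 fixed ones, up to 3 of each family with the widest common promoter region, members with promoter regions in more than 1 list, the 5 with the most condition-specific regions, and the 5 highest-scoring regions and promoter regions of each condition-specific list. Other genes named fall outside this rule and were chosen after their values were seen. Alternatives were score minimums of 2 and 3, no tied scores, a width of at least 500 bp, promoter windows of 1 and 5 kb, regions within 10 kb, overlap with a RefSeq start, changes of the gene set, and all contigs. CpG-rich promoters, and all hnRNP alternatives, were added after seeing the data.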

Additional observations from a re-analysis of the deposited data

How the results depend on the processing

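No paired analysis was possible because the region lists used here combine the 3 libraries of each condition, so no replicate could be left out either, and depth limits cannot be given. Of 86 values under the alternatives run, 62 stayed inside the main interval and 24 moved outside it. The members' promoter share was above that of all genes under every alternative run, for the BIBR1532 list (13 of 13), the vehicle list (13 of 13), the common list (10 of 10) and the hnRNP genes (9 of 9). The margin was small in places: among CpG-rich promoters it was 11.5% against 11.3% in the BIBR1532 list, 17.3% against 12.6% in the vehicle list and 31.7% against 27.2% in the common list, each inside the members' interval. Regions within 10 kb, genes called protein-coding and all contigs left the member and hnRNP counts as in the main analysis. These tallies are therefore not separate checks, and the main BIBR1532 interval included the share over all genes. The BIBR1532 share of condition-specific regions ranged from 43.1% to 50.8% under the 8 alternatives that change which regions are counted, inside its main interval; the other 3 counted the same regions.

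With regions of at least 500 bp, members with a promoter region were 0.637% in the BIBR1532 list (8.92% in the main analysis), 1.91% in the vehicle list (14.6%) and 7.01% in the common list (29.3%), against 0.425%, 0.471% and 3.01% of all genes, and hnRNP genes with a common one were 14.3% (61.9%). With centres within 1 kb, members were 15.9% in the BIBR1532 and 22.9% in the vehicle list, and within 5 kb 18.5% and 26.1%. With any region overlapping a RefSeq start they were 21.5%, 28.9% and 43.0% in the BIBR1532, vehicle and common lists. A score of at least 3 left 7.01% in the vehicle list. The promoter share of the members' BIBR1532 regions (18.8%) was 10.0% at 500 bp or more, 34.1% and 40.0% for centres within 1 and 5 kb, and 36.4% among regions within 10 kb. That of vehicle regions (27.7%) was 15.9% at a score of at least 3, 40.0% without tied scores, 42.6% and 50% within 1 and 5 kb, and 44.8% within 10 kb. That of common regions (65.8%) was 91.7% at 500 bp or more, and 86.8% and 89.5% within 1 and 5 kb. These alternatives count fewer regions or a wider class by construction.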

Other observations

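Some condition-specific promoter regions of members stood far from any common region. Sf3b1, Ddx28 and Srsf9 in the BIBR1532 list and Ddx10, Rbm33 and Prpf38b in the vehicle list had their nearest common region between 22091 and 288212 bp away. Their scores were 4.10, 4.15 and 2.06 in the BIBR1532 list, and 1.47, 2.57 and 4.81 in the vehicle list. Rbm46os, the antisense RNA of Rbm46, had a single region, in the BIBR1532 list in its intron 1 of 3 with score 7.57.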
